A study of Homo sapiens with 7 samples.

Results

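The genes described here are the Notch receptors NOTCH1, NOTCH2 and NOTCH3, the ligands JAG1 and JAG2, the receptor modifier LFNG, the nuclear mediator RBPJ and the target genes HES1, HEY1 and HEY2, measured on 7 expression arrays of human dermal fibroblasts. The 10 genes were chosen by their place in the pathway, and every array probe set annotated to only 1 of them was taken, which gave 28 probe sets. The probe set with the highest mean signal stood for its gene. Of the 10 genes, 8 reached a signal of 100 on at least 1 array and were tested among the 12726 genes that did so, out of 19775 genes with a probe set of their own. LFNG and HEY2 stayed below 100 on every array. Values are MAS 5.0 signals, the array software's scaled measure of how brightly a probe set hybridised, and differences are given on the scale of log2(signal + 16).

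The study compared normal fibroblasts with fibroblasts that overexpressed a mutant form or the wild-type precursor of lamin A, a structural protein of the nuclear envelope. It also studied such cells after treatments that alter the processing or lipid modification of that protein. By their labels all 7 arrays held RNA of 1 primary dermal fibroblast line from a healthy individual, collected at passage 10. There were 2 control arrays and 1 array of each other condition. These were cells overexpressing progerin, the shortened lamin A of Hutchinson-Gilford progeria, progerin cells given the farnesyltransferase inhibitor L-744832 (FTI) at 10 nM for 48 h, cells overexpressing wild-type prelamin A, prelamin A cells given the same FTI at 10 nM for 48 h, and prelamin A cells that also overexpressed ZMPSTE24, the protease that processes prelamin A. The title of the array of prelamin A cells with FTI leaves prelamin A out, and its condition was taken from the source and treatment labels. Progerin and prelamin A were delivered by lentivirus from a CMV promoter. The labels do not say whether the control cells carried a virus or whether untreated cells received the solvent, so viral transduction and the lamin protein cannot be told apart in any comparison with the controls. The study's methods name a second fibroblast strain as well, which the labels give for no array. Nothing in the labels says that the 2 control arrays came from separate cultures. The p-values for the 6 conditions therefore rest on how far these 2 arrays lie apart, in each gene and pooled over all genes tested. That may be a technical spread only, and for a condition with 1 array the spread of the controls was taken in its place. Where arrays were pooled into 3 states, the spread also came from arrays of different conditions within a state.

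Notch receptors are single-pass membrane proteins that are cut when a ligand on a neighbouring cell binds them. The freed intracellular part enters the nucleus and joins the DNA-binding protein RBPJ, which switches on genes of the HES and HEY families, themselves repressors of transcription. Jagged ligands and Fringe glycosyltransferases set how strongly a given receptor responds, and in dermal fibroblasts the pathway is known for its part in matrix production and in the cells' identity.

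All 9 fibroblast markers, such as COL1A1, DCN and PDGFRB, were at 882.5 or more on every array. Of the other cell types in which Notch genes are used, 2 of 5 endothelial markers (PECAM1 and TEK) and 4 of 6 mural or smooth muscle markers (RGS5, CNN1, ACTG2 and KCNJ8) reached 100 on at least 1 array, while VWF, CDH5, KDR, MYH11 and DES did not. The summed signal of the 5 endothelial markers was 191.5 to 270.0 on the control arrays and 363.1 to 502.8 on the 5 others, and that of the 6 mural markers was 1050 to 1160 and 2099 to 2816. The higher endothelial sum came from TEK, at 23.5 and 2.19 on the controls and 167.3 to 344.2 on the others, while PECAM1 was at 156.2 and 92.3 and at 88.0 to 133.3. None of 4 keratinocyte and 3 melanocyte markers reached 100. Of the blood markers CD14 and HBB did and PTPRC did not, and of markers of the embryonic kidney cells used to make virus INA, NEFL and NEFM did and GATA3 did not. The blood sum was 149.5 to 253.2 on the control arrays and 338.8 to 695.8 on the others, and the embryonic kidney sum 95.5 to 118.3 and 473.2 to 898.3. CD14 was at 87.2 and 55.3 on the controls and 197.9 to 575.3 on the others, while HBB and PTPRC overlapped. INA, NEFL and NEFM lay above both controls on all other arrays, while GATA3 did not. Among mural markers KCNJ8 was at 240.1 and 346.6 and at 627.3 to 1412. CNN1 was above both controls except on the prelamin A array, and RGS5 and ACTG2 overlapped. The part of these markers in any difference from the controls was not tested. In such bulk RNA fewer cells of a type and less RNA per cell cannot be told apart. Median signals of the 7 arrays lay between 64.9 and 77.0, and the controls differed from each other by more than 2-fold in 1181 genes, 9.28% of those tested.

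The promoters of HES1 and HEY2 are shown because they are the classical sites at which RBPJ meets its target genes, and because HES1 was the member with the largest spread between arrays. Each window has 300 bases, most of them before the start of the gene and the last of them after it, in RefSeq on GRCh38.p14, plus strand, at chr3:194135898-194136197 for HES1 and chr6:125749382-125749681 for HEY2. Capitals mark TGGGAA, the core of the sequence RBPJ binds, or its reverse complement TTCCCA.
HES1: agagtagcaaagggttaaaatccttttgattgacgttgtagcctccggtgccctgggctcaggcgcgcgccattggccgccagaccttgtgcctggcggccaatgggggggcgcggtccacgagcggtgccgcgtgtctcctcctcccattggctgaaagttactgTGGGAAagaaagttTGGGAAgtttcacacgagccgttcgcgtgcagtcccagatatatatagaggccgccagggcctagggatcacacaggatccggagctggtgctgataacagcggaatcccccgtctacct
HEY2: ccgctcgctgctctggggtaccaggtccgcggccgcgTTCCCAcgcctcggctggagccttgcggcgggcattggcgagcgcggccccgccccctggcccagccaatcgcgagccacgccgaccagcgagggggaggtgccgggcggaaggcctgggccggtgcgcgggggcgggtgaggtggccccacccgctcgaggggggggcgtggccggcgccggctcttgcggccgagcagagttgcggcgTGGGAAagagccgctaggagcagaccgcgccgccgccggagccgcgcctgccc
The HES1 window held TGGGAA at positions 167 and 181, both as printed, counted from 1 at the first base. The HEY2 window held it at position 248 as printed and at position 38 on the other strand.

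Over both strands TGGGAA stood in 24% of 35116 RefSeq promoter windows of this length, and 2 or more copies stood in 3.8% of them. Of the 9 members with a window, HES1, HEY2, RBPJ and LFNG had at least 1 copy, and HES1, HEY2 and RBPJ had 2 or more in 1 window. The longer form GTGGGAA, which contains TGGGAA, stood in 6.25% of windows and in those of HES1, HEY2 and RBPJ. CACGTG, the E box that HEY proteins bind, stood in 7.26% of all windows and in no member's window. CACNAG, the N box that HES proteins bind, stood in 38% and in the windows of NOTCH1, NOTCH2, NOTCH3, LFNG, RBPJ and HES1. These matches describe the letters only, and no binding was measured.

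**Figure D1:**
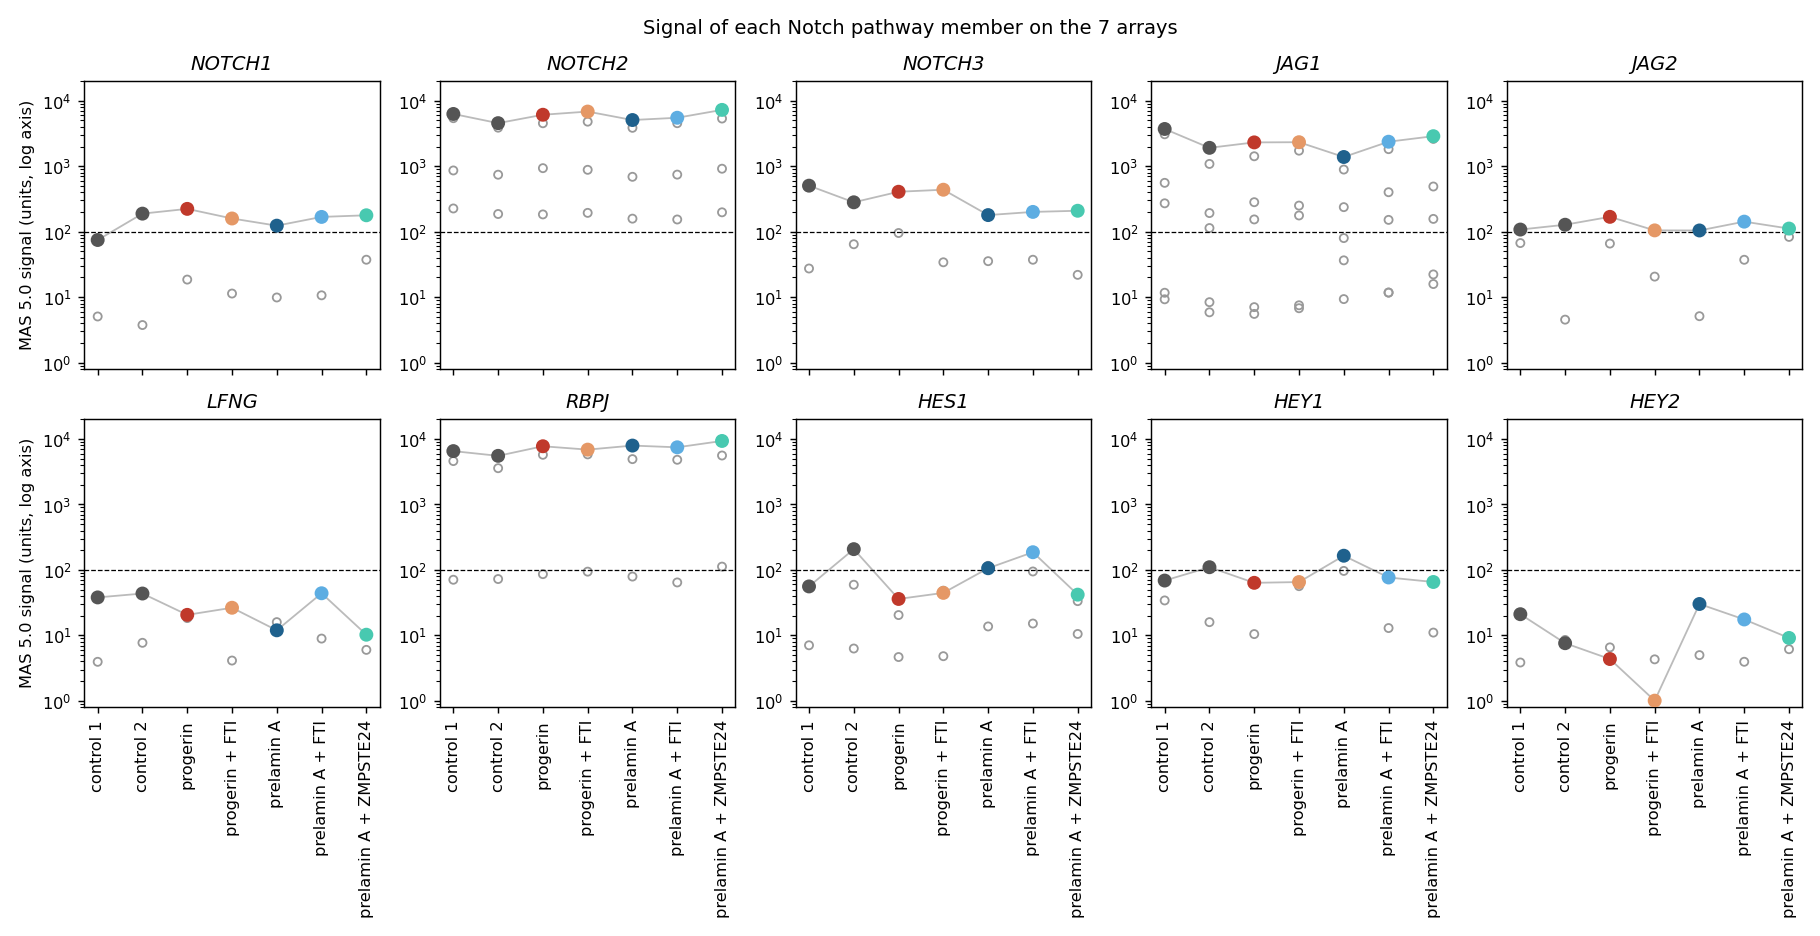
MAS 5.0 signal (log axis) of the 10 members on the 7 arrays; filled points are the probe set with the highest mean signal, open circles the other probe sets of the gene, and the dashed line is a signal of 100. NOTCH2, JAG1 and RBPJ lay far above that line on every array, HES1 and HEY1 crossed it, and LFNG and HEY2 stayed below it; signals of different probe sets are not comparable as amounts.

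NOTCH2 signal was 6282 and 4548 on the control arrays, 6110 with progerin, 6834 with progerin and FTI, 5076 with prelamin A, 5498 with prelamin A and FTI and 7250 with prelamin A and ZMPSTE24. NOTCH2 was thus far above 100 everywhere, and its range of 0.67 on the log2 scale was exceeded by most genes, 33.8% of genes having a smaller one. The prelamin A cells lay between the controls, with a difference of -0.07 (95% interval -1.06 to 0.91), and the progerin cells differed from the controls by 0.19 (-0.80 to 1.18). A further 3 probe sets of NOTCH2 were also above 100 on every array. Their correlation with the first over the 7 arrays was 0.88, 0.84 and 0.51. One further probe set names NOTCH2 together with its NOTCH2NL copies and was left out, and RNA of these near-identical copies may also bind the probe sets that were kept.

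NOTCH3, the receptor best known from vascular mural cells, had signals of 504.6 and 281.1 on the control arrays, 407.4 with progerin and 437.5 with progerin and FTI. It was at 179.3 with prelamin A, 200.5 with prelamin A and FTI and 208.8 with prelamin A and ZMPSTE24. All 3 arrays of prelamin A cells were therefore below the other 4, without overlap, and FTI and ZMPSTE24 left the signal within 0.15 and 0.20 of the prelamin A array on the log2 scale. The difference of prelamin A cells from the controls was -1.01 (SE 0.46, 95% interval -2.23 to 0.21, adjusted p = 0.503 in limma), so it did not pass the test, and that from progerin cells was -1.12 (SE 0.53, adjusted p = 0.767 in limma). NOTCH3 was picked out for this separation after its values were seen, and 12% of the genes tested had the 3 arrays below the other 4 in the same way. Its second probe set was below 100 on every array, between 21.9 and 95.5, and did not show the separation. None of the mural markers RGS5, CNN1, ACTG2 and KCNJ8 had the 3 prelamin A arrays below the other 4, but they differed among themselves. KCNJ8 was at 240.1 and 346.6 on the controls and 842.9 to 1412 on those 3 arrays. CNN1 was lowest on the prelamin A array, at 369.9, and its 3 prelamin A arrays, up to 913.2, lay below both progerin arrays, at 1325 and 1706. The part of mural cells in the NOTCH3 values was not tested.

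NOTCH1 had signals of 74.7 and 188.7 on the control arrays, 223.1 with progerin, 159.1 with progerin and FTI, 123.6 with prelamin A, 168.1 with prelamin A and FTI and 178.1 with prelamin A and ZMPSTE24. The first control was the lowest array and the second lay among the arrays of the other conditions. The difference of progerin cells from the controls was 0.81 (SE 0.58, 95% interval -0.72 to 2.34). Without the first control array it was 0.22, and without the second 1.40. The other probe set of NOTCH1 was below 100 on every array.

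Among the ligands, JAG1 signal was 3705 and 1909 on the control arrays, 2311 with progerin, 2327 with progerin and FTI, 1383 with prelamin A, 2367 with prelamin A and FTI and 2875 with prelamin A and ZMPSTE24. Prelamin A cells were the lowest array, and both treated prelamin A arrays lay between the controls, as did both progerin arrays. The difference of prelamin A cells from the controls was -0.94 (SE 0.50, 95% interval -2.27 to 0.40, adjusted p = 0.574 in limma). Adding ZMPSTE24 to prelamin A cells gave a difference of 1.05 (SE 0.58, 95% interval -0.50 to 2.59, adjusted p = 1.000 in limma) and adding FTI one of 0.77 (SE 0.58, -0.77 to 2.31). None of these passed the test. In progerin cells FTI left JAG1 where it was to within 0.01, with an interval of -1.53 to 1.55.

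The other bright probe sets of JAG1 followed the same course. The second gave 3074 and 1084 on the controls, 1419 with progerin, 1728 with progerin and FTI, 889.3 with prelamin A, 1823 with prelamin A and FTI and 2613 with prelamin A and ZMPSTE24. The correlation of the 3 further probe sets that reached 100 with the first was 0.96, 0.82 and 0.95 over the 7 arrays. The dimmest of them was at 79.9 with prelamin A and above 100 on the other 6 arrays, and in the one with the lowest correlation the second control, at 192.6, lay below the prelamin A array at 237.1. The 2 remaining probe sets were below 100 on every array. The first control was the highest array in all 4.

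JAG2 signal was 107.8 and 127.7 on the control arrays, 168.6 with progerin, 104.7 with progerin and FTI, 104.4 with prelamin A, 142.4 with prelamin A and FTI and 111.6 with prelamin A and ZMPSTE24. These values lay just above 100, and their log2 range of 0.62 was the smallest of the 8 members tested. Progerin cells were the highest array, with a difference of 0.47 (SE 0.33) from the controls, and FTI in progerin cells gave one of -0.61 (SE 0.38, 95% interval -1.63 to 0.40). FTI had the opposite sign in prelamin A cells, 0.40 (SE 0.38), and the difference between both FTI effects was -1.01 (SE 0.54, adjusted p = 1.000 in limma).

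**Figure D2:**
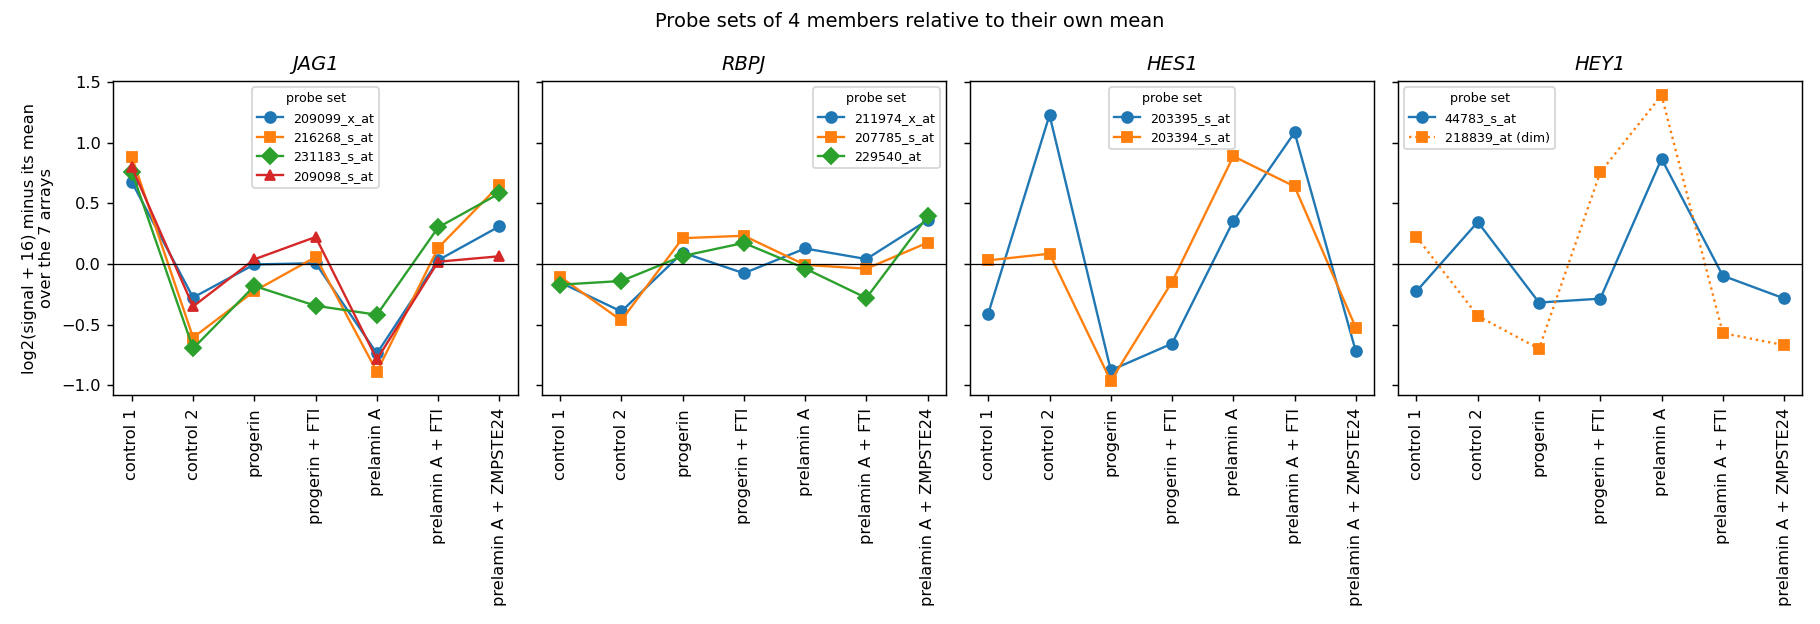
Values of log2(signal + 16) minus each probe set's own mean over the 7 arrays, for every probe set of JAG1, RBPJ and HES1 that reached 100 on at least 1 array and for both probe sets of HEY1, the dotted one being below 100 on every array. The 4 JAG1 probe sets moved together and the prelamin A array was the lowest in 3 of them, while those of HES1 parted most on the second control.

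LFNG, the Lunatic Fringe enzyme that adds sugars to Notch and so alters which ligand it answers to, was at 38.1 and 43.6 on the control arrays, 20.6 with progerin, 26.5 with progerin and FTI, 12.0 with prelamin A, 44.0 with prelamin A and FTI and 10.3 with prelamin A and ZMPSTE24. Every value was below 100 and so near the background of the array. When all 19775 genes were tested, with no minimum signal, LFNG passed in prelamin A cells against the controls, with a difference of -1.02 (SE 0.34, adjusted p = 0.477 in limma), where 9.67% of genes passed in either direction. Prelamin A cells with FTI stood 1.10 above those without (SE 0.40, adjusted p = 1.000 in limma), which did not pass.

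RBPJ, the DNA-binding partner of every Notch receptor, was at 6534 and 5529 on the control arrays, 7747 with progerin, 6880 with progerin and FTI, 7932 with prelamin A, 7464 with prelamin A and FTI and 9331 with prelamin A and ZMPSTE24. All 5 arrays of the other conditions lay above both controls. The second probe set did the same, with 4601 and 3582 on the controls and 4817 to 5822 on the others. In its dim remaining probe set the prelamin A array with FTI, at 64.4, was below both controls, at 70.8 and 72.6. RBPJ was singled out for this order after its values were seen, and 11.9% of the genes tested had all 5 arrays above the controls. The differences were small, 0.37 (SE 0.33, 95% interval -0.52 to 1.25) with progerin and 0.40 (SE 0.33, -0.49 to 1.29) with prelamin A. When the arrays were pooled into 3 states, control, lamin and treated lamin, the lamin arrays stood 0.38 above the controls (SE 0.22, adjusted p = 0.576 in limma) and the treated arrays also 0.38 (SE 0.20, adjusted p = 0.445 in limma).

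Of the target genes, HES1 signal was 56.0 and 207.8 on the control arrays, 36.0 with progerin, 44.6 with progerin and FTI, 106.2 with prelamin A, 186.5 with prelamin A and FTI and 42.0 with prelamin A and ZMPSTE24. The second control was the highest of all 7 arrays and the first lay among the low ones, so the controls alone spanned most of the range of 2.10 on the log2 scale. That range was the largest of the 8 members, and 90.4% of the genes tested had a smaller one. Progerin cells differed from the controls by -1.29 (SE 0.74, 95% interval -3.26 to 0.68, adjusted p = 0.917 in limma), which was -2.10 without the first control and -0.47 without the second. Prelamin A cells differed by -0.05 (-2.02 to 1.91), and adding ZMPSTE24 to them gave -1.08 (SE 0.86, -3.35 to 1.20).

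The second probe set of HES1 had controls that lay close together, at 56.6 and 59.4. It was at 20.5 with progerin, 48.2 with progerin and FTI, 115.6 with prelamin A, 94.7 with prelamin A and FTI and 33.4 with prelamin A and ZMPSTE24. Only the prelamin A array was above 100, so this probe set entered the test solely through the array on which it was highest, and its comparisons with that array give no independent support to a difference. When all 24392 probe sets with a signal of 100 on at least 1 array were tested, this probe set passed in 3 of 7 comparisons, and none of the other 16 member probe sets passed in any. It was lower in progerin cells than in the controls by -1.02 on the log2 scale (SE 0.35, adjusted p = 0.788 in limma), in a comparison where 2.02% of probe sets passed as lower. It was lower in prelamin A cells with ZMPSTE24 than without, by -1.41 (SE 0.40, adjusted p = 0.929 in limma), where 2.62% passed as lower. It was higher in prelamin A than in progerin cells by 1.85 (SE 0.40, adjusted p = 0.694 in limma), where 3.18% passed as higher. Calls rest on an unadjusted p under 0.05 and a change over 2-fold, and none of the adjusted p-values was under 0.05. Both probe sets had progerin as the lowest array and prelamin A with ZMPSTE24 among the low ones, and their correlation over the 7 arrays was 0.72. They disagreed on prelamin A against the controls, -0.05 in the first and 0.83 (SE 0.35, adjusted p = 0.531 in limma) in the second, and on FTI in prelamin A cells, 0.73 and -0.25.

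HEY1 signal was 68.9 and 110.1 on the control arrays, 63.6 with progerin, 65.3 with progerin and FTI, 164.9 with prelamin A, 76.7 with prelamin A and FTI and 65.5 with prelamin A and ZMPSTE24. The prelamin A array stood alone at the top and the second control came next, while the other 5 lay close together. Prelamin A cells differed from progerin cells by 1.18 (SE 0.46, 95% interval -0.03 to 2.40, adjusted p = 0.708 in limma), the smallest p of any member in any pair of conditions. Prelamin A cells differed from the controls by 0.81 (SE 0.40, -0.25 to 1.86), and adding ZMPSTE24 gave -1.15 (SE 0.46, -2.37 to 0.06, adjusted p = 0.996 in limma). HEY1 reached 100 only on the prelamin A array and the second control, its highest arrays. It was tested solely through them, so its comparisons with the prelamin A array give no independent support to a difference. Adding FTI gave -0.96 (SE 0.46, -2.18 to 0.25, adjusted p = 1.000 in limma). The second probe set of HEY1 was below 100 on every array but also had prelamin A as its highest, at 96.7 against 10.5 to 56.5 on the others. Both progerin arrays lay below the other 5 in the leading probe set, by a margin of 65.3 to 65.5, an order that 8.11% of the genes tested showed.

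The prelamin A array on which HEY1 was highest was also high in readouts of BMP signalling, the growth factor pathway whose immediate targets include the ID genes. Of 8 such readouts, all 8 were called higher in prelamin A cells than in the controls, beside 6.29% of all genes tested, with a median difference of 2.56, and 5 were called lower after ZMPSTE24, beside 2.85%, ID1, ID3, ID4, SMAD7 and ATOH8. Their smallest adjusted p-values in limma were 0.109 and 0.653. The list of readouts was chosen with earlier results of these data known, so its counts are a description and no independent support. ID4 was tested solely through the prelamin A arrays without and with FTI, on which it was highest, so its calls are a description. None of the 8 passed the test with FTI in prelamin A cells. With FTI in prelamin A cells the readouts changed by -0.78 (SMAD7) to 0.25 (SMAD6) on the log2 scale, with a median of -0.37. HEY1 changed by -0.96 (SE 0.46), which did not pass either. In progerin cells against the controls 1 readout was called higher, BAMBI, and 2 lower, ID1 and ID3, beside 3.76% and 2.04% of all genes tested. The part of BMP signalling in the HEY1 values was not tested.

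HEY2 was at 21.1 and 7.61 on the control arrays, 4.36 with progerin, 1.01 with progerin and FTI, 30.2 with prelamin A, 17.5 with prelamin A and FTI and 9.15 with prelamin A and ZMPSTE24. These values are too near background to order the conditions. With no minimum signal HEY2 passed in none of the comparisons, and prelamin A cells differed from progerin cells by 1.18 (SE 0.51, adjusted p = 0.742 in limma).

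**Figure D3:**
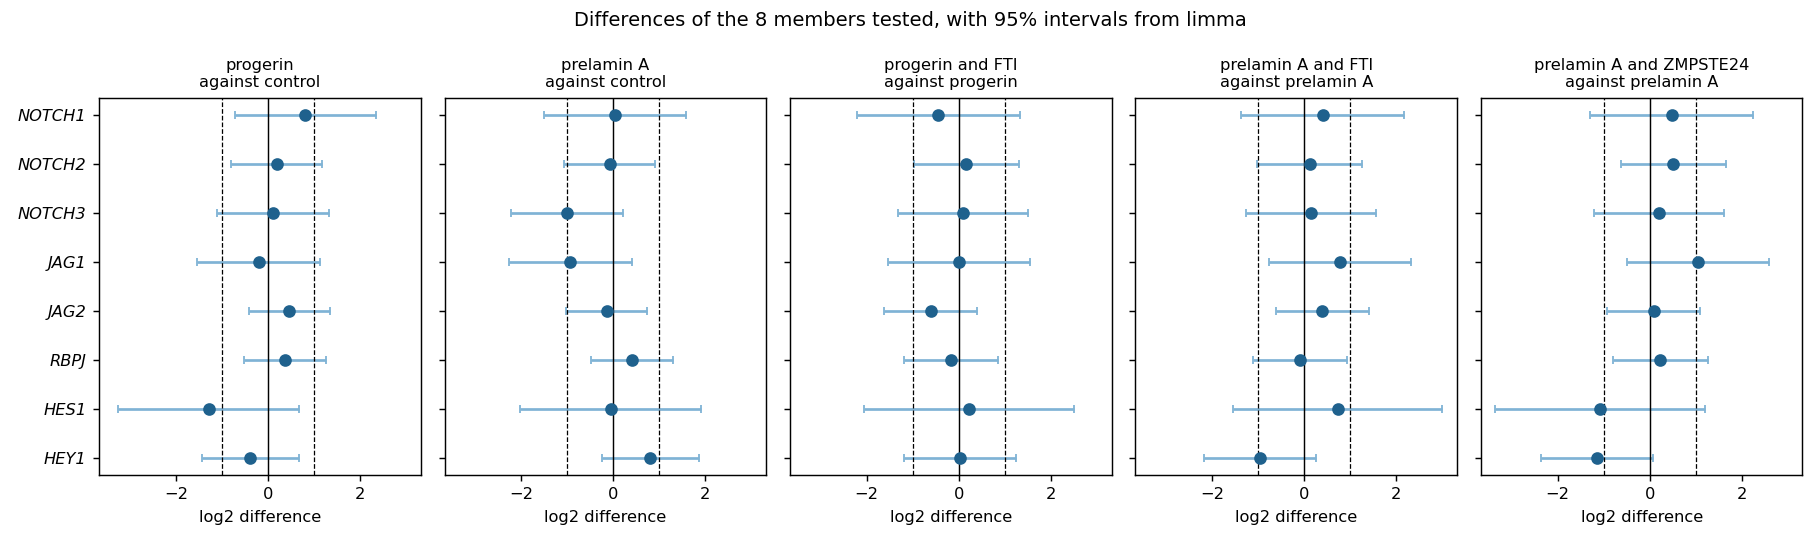
Differences in log2(signal + 16) of the 8 members tested (points) with 95% intervals from limma (bars) in the 5 comparisons of single conditions; dashed lines mark a 2-fold change. Every interval crosses 0 and reaches past at least 1 of the 2-fold lines, so the arrays could not tell a 2-fold change in that direction from none.

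Counted over the comparisons, 0 of the 8 members passed in progerin cells against the controls, where 3.76% of all genes tested were called higher and 2.04% lower. In prelamin A cells against the controls 0 of 8 passed, with 6.29% of genes called higher and 4.02% lower. With FTI, 0 of 8 passed in progerin cells, where 0.503% were called higher and 0.951% lower, and 0 of 8 in prelamin A cells, where 1.19% were called higher and 1.62% lower. With ZMPSTE24 in prelamin A cells 0 of 8 passed, with 2.18% of genes higher and 2.85% lower. Between the lines, prelamin A against progerin cells, 0 of 8 passed, with 3.59% of genes called as higher and 3.46% as lower. In the difference of the FTI effect between the lines 0 of 8 passed, with 0.747% and 1.09% of genes called. A count of 0 of 8 lies near all of these shares.

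With the arrays pooled into 3 states and calls made at an adjusted p under 0.05 in limma, 0 of 8 members passed for lamin arrays against controls (0.558% of genes), for treated against lamin arrays (0%) and for treated arrays against controls (1.08%). No member had an unadjusted p under 0.05 in any of the 10 comparisons. Over all 15 pairs of the 6 conditions, 0 of 120 differences passed, again with none at an unadjusted p under 0.05 in limma, beside 5.57% over all genes tested. The 15 pairs share the same arrays and the same 8 members, so the 120 differences are not separate tests. For none of the 8 members did neighbours in the order of the 6 conditions pass the test, which with 1 residual degree of freedom does not show that they were alike. The median difference of the 8 members against the controls was 0.15 with progerin, beside 0.01 over all genes tested, and -0.06 with prelamin A, beside -0.02.

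Across the 7 arrays, taken as a description with conditions and controls mixed, JAG1 and HEY1 ran in opposite directions, with a correlation of -0.83, and so did NOTCH2 and HES1, with -0.86. JAG1 and NOTCH2 went with each other at 0.66 and HES1 with HEY1 at 0.59. The largest correlation of RBPJ was 0.58, with NOTCH2. These values share the same 7 arrays and 1 array can set them. The genes whose log2 values were most like those of HES1 over the 7 arrays were SPTLC2 (Pearson r = 0.96), TRMT10B (0.95), ZMAT2 (0.95), LRRC15 (0.95) and SLAMF6 (0.94). All had their highest or second highest value on the second control array. LRRC15, a membrane protein of activated fibroblasts, gave 14790 and 19350 on the controls, 11880 to 12300 on the progerin arrays and that of prelamin A with ZMPSTE24, and 18970 and 19700 on the other prelamin A arrays.

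The rest of the pathway was described by a list of 59 further ligands, receptors, processing enzymes, modulators and nuclear cofactors, of which 55 had a probe set and 45 were tested. In progerin cells 4 of the 45 were called higher than in the controls, CCN3, DTX3, DLL3 and PSEN2, and 2 lower, DLK2 and NUMB, beside 3.76% and 2.04% of all genes tested. In prelamin A cells 6 were called higher, CCN3, DLK1, DNER, DTX4, TLE1 and FBXW7, and 1 lower, RFNG, beside 6.29% and 4.02%. With FTI 1 gene was called higher and 1 lower in either line, DLK2 and DLL3 in progerin cells, beside 0.503% and 0.951% of all genes, and DLL3 and NRARP in prelamin A cells, beside 1.19% and 1.62%. With ZMPSTE24 none was called higher, beside 2.18%, and 2 lower, DLK1 and DNER, beside 2.85%. Between the lines 2 genes, DNER and NUMB, were called higher in prelamin A than in progerin cells, beside 3.59%, and none lower, beside 3.46%. Nothing particular to the pathway was tested by these counts. DLK1, DNER, DTX4, DLL3, DLK2, NUMB and NRARP were tested solely through arrays on which they were highest, so their calls are a description. The list median against the controls was 0.03 in progerin and -0.03 in prelamin A cells. No adjusted p of the list was under 0.05 in any comparison, the lowest in the comparisons of single conditions being 0.188. In the 3 pooled states 0 of 45 passed in each comparison at an adjusted p under 0.05 in limma, with 5, 2 and 10 genes at an unadjusted p under 0.05.

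**Figure D4:**
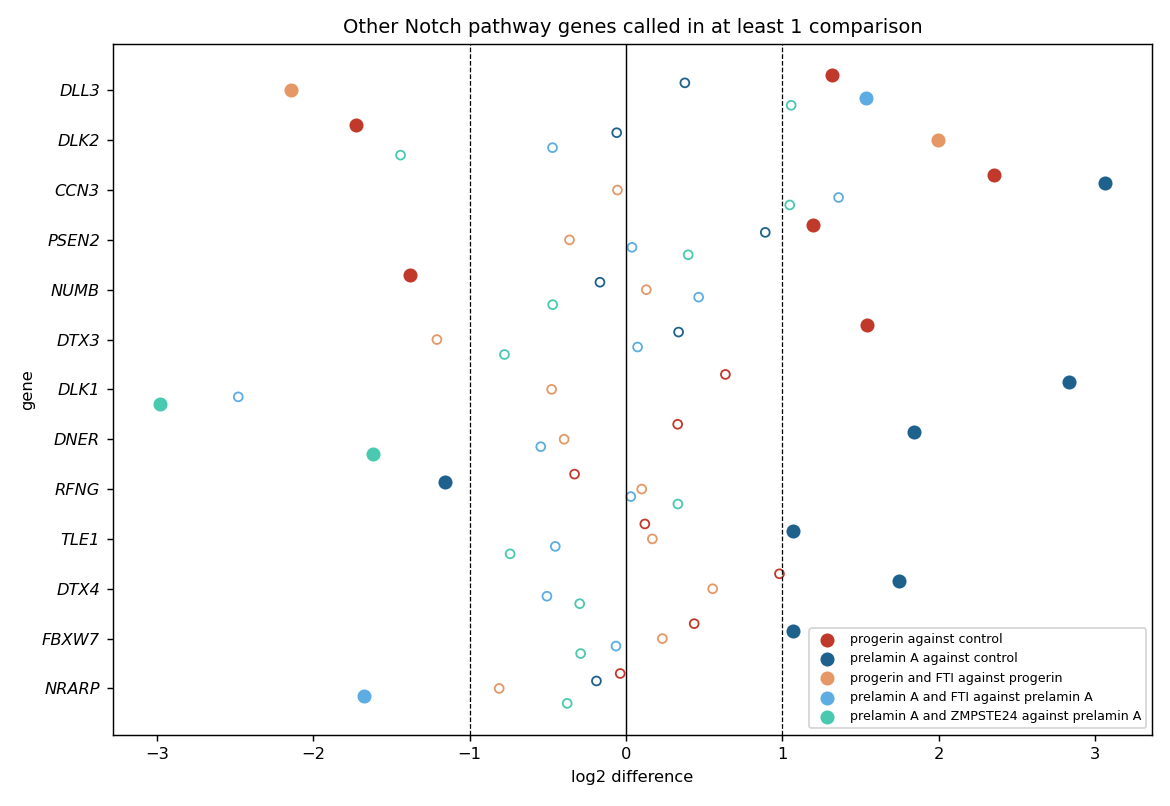
Differences in log2(signal + 16) of the 13 other pathway genes that were called in at least 1 of the 5 comparisons of single conditions; filled points were called and open points were not, and dashed lines mark a 2-fold change. CCN3 was called higher in both lamin lines, and DLK1 and DNER were called higher with prelamin A and lower when ZMPSTE24 was added. DLK1 and DNER were tested solely through prelamin A arrays, on which they were highest.

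CCN3, a secreted matricellular protein that binds Notch and modulates it, was called in both lines. It was at 607.1 and 183.4 on the control arrays, 1785 with progerin, 1718 with progerin and FTI, 2931 with prelamin A, 7540 with prelamin A and FTI and 6070 with prelamin A and ZMPSTE24. All 5 arrays of the other conditions were above both controls, an order that 11.9% of the genes tested showed. The treated prelamin A arrays were the highest of all. The difference from the controls was 2.35 with progerin (SE 0.74, adjusted p = 0.654 in limma), being 3.18 without the first control and 1.53 without the second. With prelamin A it was 3.06 (SE 0.74, adjusted p = 0.249 in limma), being 3.89 and 2.24.

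DLK1, a membrane protein of the Delta family that lacks the part needed to activate Notch, was at 5.45 and 73.3 on the controls, 52.0 with progerin, 32.9 with progerin and FTI, 295.5 with prelamin A, 39.9 with prelamin A and FTI and 23.5 with prelamin A and ZMPSTE24. Only the prelamin A array reached 100, so DLK1 was tested solely because of the array on which it was highest, and the values that follow are given as a description. Its difference from the controls was 2.83 (SE 0.90, adjusted p = 0.345 in limma), being 1.80 without the first control and 3.86 without the second, and adding ZMPSTE24 gave -2.98 (SE 1.04, adjusted p = 0.912 in limma). DNER, a transmembrane protein with Delta-like repeats, gave 38.6 and 26.2 on the controls, 44.3 with progerin, 29.9 with progerin and FTI, 156.2 with prelamin A, 102.0 with prelamin A and FTI and 40.2 with prelamin A and ZMPSTE24, so its prelamin A array was again the highest. Only the prelamin A arrays without and with FTI reached 100, so DNER too was tested solely through arrays on which it was highest. The values that follow are again a description. DNER rose by 1.84 with prelamin A (SE 0.35, adjusted p = 0.188 in limma), changed by -1.61 with ZMPSTE24 (SE 0.41, adjusted p = 0.732 in limma) and was 1.51 higher in prelamin A than in progerin cells (SE 0.41, adjusted p = 0.641 in limma).

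DTX4, a Deltex protein that acts on the Notch intracellular region, gave 79.0 and 27.1 on the controls and 198.9 in prelamin A cells, a difference of 1.75 (SE 0.56, adjusted p = 0.352 in limma), which was 2.32 without the first control and 1.18 without the second. It was also above both controls, at 110.3 to 169.4, on the other 4 arrays. Both controls were below 100, so DTX4 was tested solely through the arrays on which it was higher than in them. The difference of DTX4 is given as a description. Its relative DTX3 was at 257.9 and 400.4 on the controls and 965.9 with progerin, a difference of 1.54 (SE 0.40, adjusted p = 0.535 in limma). With progerin and FTI it was at 408.6, and the 3 prelamin A arrays lay between 232.7 and 432.6. RFNG, the Radical Fringe enzyme, was at 1239 and 1690 on the controls, 1149 and 1232 on the progerin arrays and 639.8, 653.7 and 808.9 on the prelamin A arrays. Its 3 prelamin A arrays were thus below the other 4, an order that 12% of the genes tested showed. RFNG was named after its values were seen. Prelamin A cells differed from the controls by -1.16 (SE 0.37, adjusted p = 0.3445 in limma).

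NUMB, DLK2 and NRARP lay near or below 100 on every array. NUMB reached 100 only on the prelamin A array with FTI, at 103.9, and DLK2 and NRARP only on the second control, at 110.4 and 114.6. Each was tested solely through the array on which it was highest, and the values that follow are given as a description. NUMB, which removes Notch from the membrane, was at 88.5 and 75.1 on the controls, 21.4 with progerin and 24.9 with progerin and FTI, against 46.8 to 103.9 on the prelamin A arrays, and the difference of progerin cells was -1.38 (SE 0.33, adjusted p = 0.487 in limma). It was 1.22 higher in prelamin A than in progerin cells. DLK2 was at 37.9 and 110.4 on the controls, 8.91 with progerin and 83.1 with progerin and FTI, which gave -1.73 (SE 0.59, adjusted p = 0.683 in limma) and then 1.99 with FTI. Without the first control the former was -2.34 and without the second -1.11, and the prelamin A arrays lay between 13.2 and 63.2. NRARP, a feedback inhibitor of Notch, was at 14.4 in prelamin A cells given FTI, 81.2 in those without and 45.6 to 114.6 on the other 5 arrays, a difference of -1.68 (SE 0.43, adjusted p = 1.000 in limma).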

How the data were processed

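RNA of 7 fibroblast samples was hybridised to Affymetrix Human Genome U133 Plus 2.0 arrays by the authors, whose deposited values are MAS 5.0 signal intensity values on a linear scale, background-corrected, summarised per probe set and scaled per array by the authors to a common target. The version of MAS5 is not given in the sources used here. The members and gene lists were chosen with earlier results of these data known. Of 54675 probe sets, 62 array controls were left out, 41091 named 1 gene, and 41037 were matched to current symbols by gene ID. The deposited intensity was analysed as log2(signal + 16), with no further normalisation, for genes at 100 or more on at least 1 array. R 4.3.3 with limma 3.58.1 (lmFit, eBayes) fitted 6 conditions, with 1 residual and 3.5 prior degrees of freedom. A call needed a change over 2-fold and an unadjusted p under 0.05; adjusted p-values are Benjamini-Hochberg over all genes tested, and tests are two-sided. A second fit of 3 states (control, n = 2; lamin, n = 2; treated, n = 3) had 4 residual degrees of freedom and was called at an adjusted p under 0.05. The study's own S-score test needs probe-level values and was not repeated. The scripts were tested on simulated data. Named were all 10 members, the genes of the pathway list called in at least 1 comparison with at most the 4 of largest change each described by the rule (DLL3, PSEN2, TLE1, FBXW7 and RFNG were named in addition after their values were seen), and the 5 genes most like the member of largest range. Some genes of the lists are not reported here. The number of arrays limits the precision. Figures were drawn with matplotlib 3.10.9. Alternatives were quantile normalisation, median centring, pseudocounts of 1 and 64, other filters, other probe sets, an intensity trend, a p of 0.01, the line as a block and leaving out single arrays.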

Additional observations from a re-analysis of the deposited data

Results flagged for a closer look

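DLL3, a Delta-type ligand, was lower with FTI than without on the progerin arrays and higher on the prelamin A arrays. Its signal was 30.7 and 11.6 on the control arrays, 73.5 with progerin and 4.24 with progerin and FTI, 30.6 in prelamin A cells without the inhibitor and 119.0 with it, and 80.8 with ZMPSTE24. The FTI effect in progerin cells minus that in prelamin A cells was -3.68 on the log2 scale (SE 0.73, adjusted p = 1.000 in limma), from -2.14 in progerin and 1.54 in prelamin A cells. DLL3 reached 100 only on the prelamin A array with FTI, on which it was highest, and was tested solely through it, so the value is no independent support for a difference. There was 1 array for each of these conditions, and 0.747% of genes passed this test as higher and 1.09% as lower.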

How the results depend on the processing

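The number of members called was 0 in each of the 10 comparisons and stayed 0 in 106 of 109 alternative values. For prelamin A against progerin cells it was 1 with median centring (HEY1, 1.25) and 2 with the median of a gene's probe sets (HES1, 1.54, and HEY1, 1.18), and for prelamin A against control it was 1 with no filter on dim probe sets (LFNG). With a mean signal of at least 100 HES1 and HEY1 were not tested, and otherwise both entered solely through the arrays on which they were highest. Leaving out a control in the fit of 6 conditions left no residual degree of freedom, so those values carry no test. No paired analysis was possible because the labels give no replicate number shared between groups.

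Of 529 alternative values of the members' differences, 24 had the opposite sign, none of them called. With quantile normalisation, FTI in progerin cells gave -0.0111 for JAG1. With the median of probe sets, HES1 with prelamin A was 0.39, FTI in progerin cells gave -0.0007 for NOTCH2 and 0.0205 for RBPJ, the difference of the FTI effects was -0.17 for NOTCH2, 0.0527 for RBPJ and 0.28 for HES1, and RBPJ was -0.22 between the lines. With other single probe sets, NOTCH2 with progerin was -0.15 and -0.016 and HES1 with prelamin A 0.83. FTI in progerin cells gave 0.0205 and 0.11 for RBPJ, -0.0823 for NOTCH2 and -0.16 for JAG1, and in prelamin A cells -0.0384 for NOTCH2 and -0.25 for HES1. The difference of the FTI effects was 1.07 for HES1, 0.0527 and 0.35 for RBPJ and -0.19 and -0.15 for NOTCH2, and RBPJ was -0.22 and -0.10 between the lines. The cause was not tested.

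Of the 17 differences named for other pathway genes, none changed sign in 153 alternative values, and 38 no longer passed, most with a p under 0.01, an intensity trend or a pseudocount of 64. These differences were named because they had passed, and other single probe sets were tried only for the members. Their constant sign is therefore no independent support and cannot be set against the changes of sign among the members. With progerin the 6 calls became 0 at a p under 0.01, 2 with a pseudocount of 64 and 3 with an intensity trend or a mean signal of at least 100, and with prelamin A the 7 calls became 1 at a p under 0.01. The counts for FTI, ZMPSTE24 and between the lines, 1 or 2 calls each, ranged from 0 to 4. Low signal limits what can be said of HES1, HEY1, HEY2, LFNG and most of the pathway genes called.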
